A study of Mus musculus with 2 samples.

Results

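Other Ly6c2-low C1q macrophages were cells of the tumor infiltrate that carried the complement genes C1qa, C1qb and C1qc but few transcripts of the genes used to set apart the better defined C1q-expressing cells. Members were chosen by measured values. A cell entered with at most 10% mitochondrial UMIs (unique molecular identifiers, each a distinct transcript), at least 20 UMIs of the 3 C1q genes summed, fewer than 2 of Ly6c2, fewer than 5 of Vcam1, Ccl8 and Folr2 summed, fewer than 3 of Cd300e, Clec4b1 and Pparg summed, and at most 1 of Cd3d, Cd3e and Cd3g summed. The rule kept 483 of 5167 cells, 207 in the library labelled wt and 276 in the library labelled cko. C1q levels and the near absence of the other gate genes are therefore how the cells were selected and not findings.

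CD45+ leukocytes came from s.c. Lewis lung carcinoma (LLC) tumors, grown from a mouse lung carcinoma line in C57/BL6 hosts. Mice were 8 weeks old at implantation and 10 weeks old at collection on day 14. The library labelled wt stands for miR-21 flox/flox control mice, and the library labelled cko for LysMCre;miR-21 flox/flox mice, so both genotypes carry the floxed alleles. Cre is expressed there from the lysozyme M locus (Lyz2), which is active in macrophages, monocytes and granulocytes and not restricted to the cells described here. Each library was 1 pool of 3 mice. With 1 library per genotype, differences between animals cannot be told apart from differences between genotypes, and no test was run. Intervals are exact, at 95%, and cover counting error only. Titles and source descriptions of the samples assign the genotypes in opposite ways, and the microRNA itself is not measured by these libraries. Lyz2, which the Cre insertion disrupts on its own allele, was lower in the library labelled cko in all 6 sets of cells examined (log2 ratio, cko over wt, of −0.84 to −1.19), the direction that the titles give. Titles were followed, and directions refer to the library labels. The descriptions also differ on the sort, naming either CD45+ cells alone or a macrophage gate that adds CD11b, MHCII and F4/80.

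C1q is made mainly by tissue macrophages, which express it as they mature from monocytes. Blood monocytes that enter a tumor lose Ly6C and gain complement, scavenger and antigen-presenting genes. Macrophages found in tumors range from antigen-presenting cells to cells that handle lipid, iron and matrix. MicroRNAs repress mRNAs by pairing of the seed, near their 5′ end, with sites mostly in the 3′ untranslated region (UTR). The deleted microRNA is shown because its seed defines the sites that follow; capitals mark the seed, bases 2 to 8.

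mmu-miR-21a-5p: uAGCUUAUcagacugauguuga

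This 22-base RNA is listed by RefSeq on the minus strand of GRCm38.p6 at chr11:86584120-86584141, within the gene Vmp1. Sites in genes known as miR-21 targets were read from GENCODE M21 transcripts on GRCm38, and capitals mark the seed match ATAAGCT. They are shown for 5 of the targets described below.

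Pdcd4 (chr19:53929417-53929439, plus strand): agtgtgggtgttctgATAAGCTa

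Rhob (chr12:8497718-8497740, minus strand): ttacataagagttctATAAGCTg

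Tgfbi (chr13:56639169-56639191, plus strand): agaaacggcatcactATAAGCTa

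Peli1 (chr11:21148540-21148562, plus strand): ctgcattgtaagtttATAAGCTa

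Il12a (chr3:68698319-68698341, plus strand): gaagagcaagaactgATAAGCTa

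All 5 stretches lie in the 3′ UTR of the transcript with the longest 3′ UTR. The 7 letters occur in the 3′ UTR of 11 of 15 listed targets and of 1498 of 21047 protein-coding genes (7.12%). A match is a description of the letters and not evidence of pairing in these cells.

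The cells carried genes of macrophages and monocytes beside C1q. Over the summed UMIs of the members, levels are given as CPM (UMIs of a gene per 1000000 UMIs of the members), first for the library labelled wt and then for cko. Csf1r, the receptor for the macrophage growth factor CSF1, had 601 and 570 CPM. Cd68, a lysosomal glycoprotein of macrophages, had 969 and 892 CPM. Adgre1, which encodes F4/80, had 297 and 290 CPM, and Fcgr1, the high-affinity Fc receptor, had 636 and 578 CPM. Cells with at least 2 UMIs of Ly6c2, a monocyte marker, and fewer than 20 of C1q also carried Csf1r (461 and 429 CPM), Cd68 (650 and 652), Adgre1 (179 and 156) and Fcgr1 (535 and 491), so these 4 genes do not set the members apart from such cells. Other macrophage genes were low in the members: Mertk, a receptor for the uptake of dying cells, had 17.02 and 17.7 CPM, and Cx3cr1, the fractalkine receptor, had 22.03 and 13.1 CPM. The genes proposed to mark the cells varied more. Apoe, Pf4, Ms4a7 and Mrc1 were all detected, but Pf4 and Mrc1 had UMIs in a minority of thinned cells (below). These genes did not mark the members out from the neighbouring C1q cells with Vcam1, Ccl8 or Folr2, which had more of all 4 in both libraries. There Apoe had 3801 and 6438 CPM, Pf4 1833 and 1166, Ms4a7 1333 and 981, and Mrc1 377 and 267, against 2195 and 5507, 1251 and 572, 692 and 454, and 267 and 170 CPM in the members.

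Genes of the classical monocyte list summed to 3085 and 3337 CPM. Plac8 contributed 1905 and 1747 CPM, and Ccr2, the receptor that draws monocytes into tissue, 576 and 697 CPM. The levels of genes that define other lineages varied. The 10 T and NK cell genes summed to 37.1 and 28.2 CPM, a list that holds the Cd3 genes limited by the rule. The sums were lower for 8 conventional dendritic cell genes (6.51 and 8.87 CPM), 6 B and plasma cell genes (13.5 and 12.7 CPM) and 5 epithelial and tumor genes (4.01 and 6.56 CPM). Of 5 fibroblast genes only 2 and 1 UMIs were counted in all. Nonclassical monocyte genes summed to 134 and 202 CPM. The plasmacytoid dendritic cell list had 204 and 231 CPM, nearly all of it Bst2, an interferon-induced gene of many cell types, with 1 and 0 UMIs of the defining gene Siglech. Erythrocyte and platelet genes had 135 and 177 CPM, nearly all of it Ppbp. Outside the monocyte lists, neutrophil genes had the highest sum, at 884 and 708 CPM for 6 genes, most of it S100a8 (438 and 317 CPM) and S100a9 (313 and 249 CPM). A single cell of each library held 30.4% and 32.4% of the S100a8 UMIs, and the neutrophil receptor Cxcr2 had 3.00 and 1.93 CPM.

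Depth was similar between the libraries. Members had a median of 8935 UMIs (3278 to 32835) in the library labelled wt and 8641.5 (3267 to 39927) in the library labelled cko, with median mitochondrial shares of 1.77% and 1.89%. Summed UMIs of the members were 1997155 and 2593061. The 2 libraries shared 5 cell barcodes, none of them a member. Automatic doublet calling with Scrublet marked 2 and 5 cells of all, too few to be trusted. Removal of the highest scores at the rate implied by cell loading took out 3 members in each library. Cells near the limits of the rule were not rare. For Ly6c2, 70 and 66 members had exactly 1 UMI, while 35 and 27 otherwise eligible cells had 2. For Cd300e, Clec4b1 and Pparg, 25 and 44 members had 2 UMIs, while 19 and 26 cells outside had 3. For C1q, 11 and 17 members had 20 to 24 UMIs, while 9 and 14 cells outside had 15 to 19. For Vcam1, Ccl8 and Folr2, 4 and 8 members had 4 UMIs, and 4 and 7 cells outside had 5.

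The neighbouring C1q cells were deeper, with median UMIs of 18914 and 17436 in cells with at least 5 UMIs of Vcam1, Ccl8 and Folr2, 13063 and 11642 in cells with at least 3 UMIs of Cd300e, Clec4b1 and Pparg, and 11094.5 and 10473 in cells with at least 2 UMIs of Ly6c2. A fixed upper limit in UMIs is passed more readily by a shallow cell. The rule applied to cells thinned to 3000 UMIs, with lower limits, kept 233 and 267 cells.

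The first comparison asked how common these cells were in each infiltrate. They made up 8.45% of the library labelled wt (207 of 2449 cells, interval 7.38 to 9.62) and 10.2% of the library labelled cko (276 of 2718 cells, interval 9.04 to 11.4). The ratio of shares was 1.20, with an interval of 1.00 to 1.45 that reached no difference. Among all C1q cells the shares were closer, 27.7% of 746 cells and 29.3% of 942 cells, a ratio of 1.06 (interval 0.879 to 1.27). Over the same libraries the share of Cd300e, Clec4b1 and Pparg cells had a ratio of 1.84 (interval 1.46 to 2.34), and that of Ly6c2+ C1q cells a ratio of 0.779 (interval 0.647 to 0.938). The ratio was 1.03 (interval 0.863 to 1.24) for the rule on thinned cells and 1.38 (interval 1.11 to 1.73) with Ly6c2 at 0 UMIs, so whether the interval reached 1 depended on the rule.

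**Figure D1:**
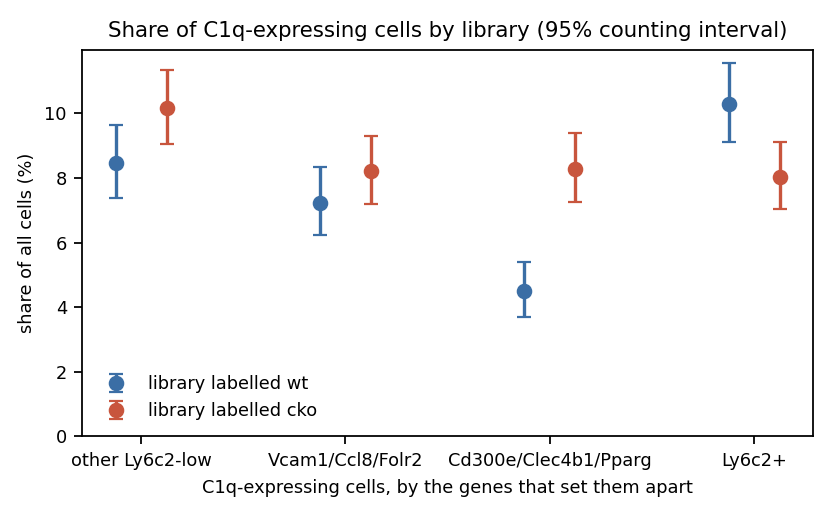
Share of all cells (y axis, %) held by each set of C1q-expressing cells (x axis) in the 2 libraries, with points for the measured share and bars for the exact 95% counting interval. For the other Ly6c2-low cells, 8.45% and 10.2%, the bars overlap, while those for the Cd300e, Clec4b1 and Pparg cells do not.

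Within each library the members were set beside the neighbouring C1q cells. These differences describe a selection by measured genes and received no test. Against the Vcam1, Ccl8 and Folr2 cells, members had more Spp1 (osteopontin, a secreted matrix phosphoprotein), at 555 against 60.6 CPM in the library labelled wt and 641 against 32.6 CPM in cko. T cells, described below, also carried Spp1, at 351 and 231 CPM. Thbs1, the matrix protein thrombospondin 1, had 176 against 18.02 CPM and 138 against 20.1 CPM. Ccr2 had 576 against 102 CPM and 697 against 110 CPM. F10, which encodes coagulation factor X, had 193 against 21.6 CPM and 188 against 30.7 CPM. Chil3, Ifitm1, Ly6i, Vcan, Pbxip1 and Bhlhe40 were the other leading genes in that direction. The Ly6c2+ C1q cells had similar or higher levels of several of these. There Ccr2 had 602 and 609 CPM, Chil3 348 and 819, Ly6i 153 and 138, and Vcan 72.6 and 77.6. In the members Chil3 had 229 and 464 CPM, Ly6i 135 and 60.2, and Vcan 49.6 and 39.3. High levels of these genes therefore did not set the members apart from the Ly6c2+ C1q cells.

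Igf1 and Gas6 were lower. Igf1, a growth factor gene, had 5.01 against 94.2 CPM and 2.31 against 46.9 CPM, and Gas6, a ligand that bridges dying cells to macrophage receptors, 28.0 against 228 CPM and 18.9 against 156 CPM. The ficolin gene Fcna and the carbonyl reductase gene Cbr2 were lower too, at 6.51 CPM each against 124 and 141 CPM in the library labelled wt. Division genes were low in the members, with Ccnb2 at 2.00 and 5.78 CPM against 44.0 and 73.7 CPM. Birc5, another division gene, had 17.0 and 19.7 CPM against 117 and 137 CPM in the Cd300e, Clec4b1 and Pparg cells.

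Against the Cd300e, Clec4b1 and Pparg cells the members again had more Spp1, Thbs1 and Vcan, and more Il1r2, the decoy receptor for IL-1, at 337 against 83.6 CPM and 392 against 89.5 CPM. Clec4d, a C-type lectin of myeloid cells, had 168 against 41.8 CPM and 138 against 30.8 CPM. Asb2 and Cadm1 were lower, Cadm1 at 14.0 against 136 CPM and 26.6 against 162 CPM. Against the Ly6c2+ C1q cells the leading lower genes included several induced by interferon. Isg15 had 290 against 710 CPM and 276 against 658 CPM, and Ifit3 had 39.6 against 155 CPM and 52.1 against 174 CPM. Cxcl10, a chemokine for activated T cells, had 94.6 against 271 CPM and 75.2 against 179 CPM. Genes higher than in those cells included Mmp12, a macrophage elastase, at 164 against 55.6 CPM and 218 against 79.0 CPM, and Cxcl2, a neutrophil chemokine, at 295 against 82.0 CPM and 354 against 131 CPM, although 1 member held 46.2% of the Cxcl2 UMIs labelled wt.

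**Figure D2:**
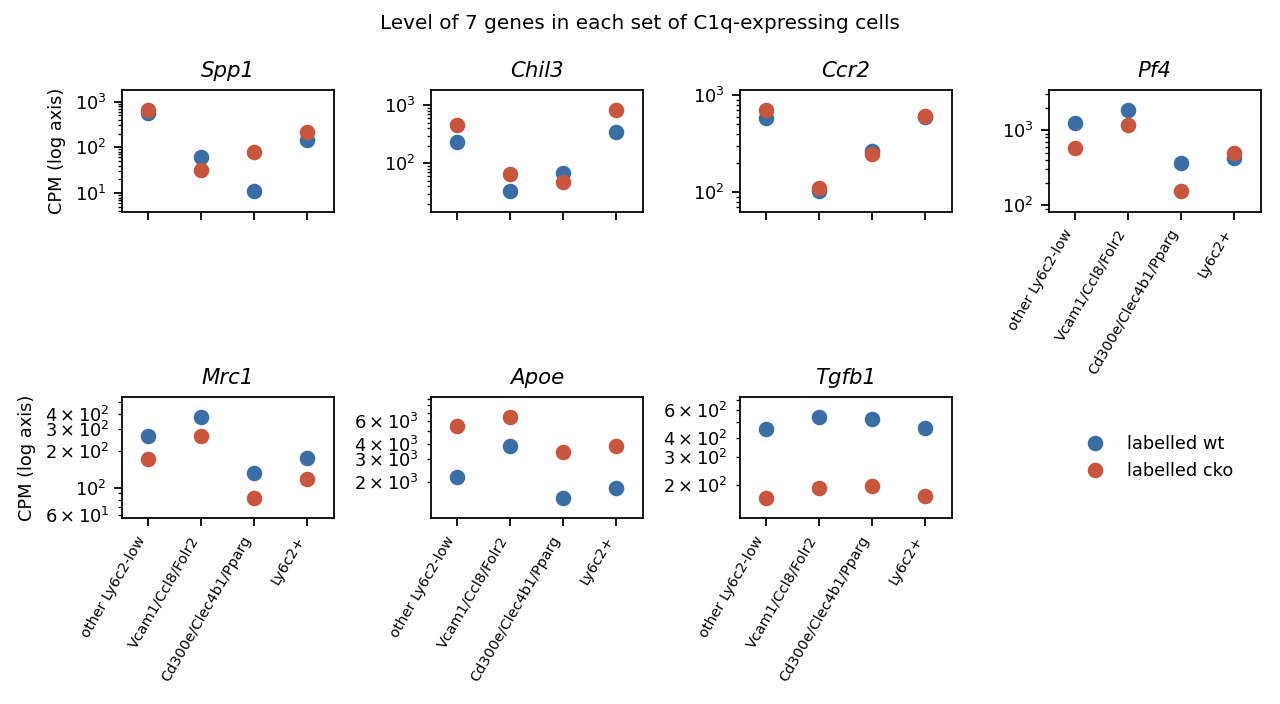
Level (y axis, CPM on a log axis) of 7 genes in each set of C1q-expressing cells (x axis), with 1 point per library. Spp1 is highest in the other Ly6c2-low cells in both libraries, while Tgfb1 is lower in the library labelled cko in all 4 sets.

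Cell-to-cell variation was described next, after each cell was thinned to 3000 UMIs, which left out no cell. The Fano factor (variance over mean, near 1 for counting noise) was computed for 3234 genes, and the median of the smaller of the 2 libraries' values was 0.999. Ranked by the smaller of its 2 values, Ppbp, a platelet chemokine gene also seen in myeloid cells, led with 46.2 and 81.0. Spp1 followed with 58.2 and 36.6. These values came from few cells. After thinning, 50% of all Ppbp UMIs lay in 1 cell in each library, and 50% of the Spp1 UMIs in 3 of 207 and 5 of 276 cells. Pf4, another platelet chemokine gene, had values of 24.6 and 11.7 and is described below. Of the platelet receptor genes, Gp9 had no UMI and Itga2b had 0 and 1 UMIs.

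Thus the summed Spp1 levels above describe a small number of cells. A Spp1 UMI was found in 18.4% (interval 13.3 to 24.3) and 18.8% (14.4 to 23.96) of thinned members, and without thinning in 29.0% and 32.2%. In T cells (at least 3 Cd3 UMIs, fewer than 20 C1q UMIs, median 5812 and 7098 UMIs) the thinned share was 25.2% and 23.5%, so the share in members did not exceed that in T cells. Spp1 in T cells (351 and 231 CPM) was itself above that of the neighbouring C1q cells with Vcam1, Ccl8 or Folr2 (60.6 and 32.6 CPM), and its source was not tested. The members with the most Spp1 held 127 and 74 of 3000 UMIs.

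MHC class II genes varied broadly across cells. H2-Ab1 had a median of 38 UMIs of 3000 in the library labelled wt, with 6 at the 10th and 62.4 at the 90th percentile, and a median of 37 (7 to 60) in cko. Cd74, the invariant chain that guides class II molecules, had medians of 85 and 84 UMIs. H2-Ab1, H2-Aa and Cd74 moved together from cell to cell, with Pearson correlations of log-transformed thinned UMIs between 0.892 and 0.932 over 207 and 276 cells. Cells within a library share their preparation and free RNA, and these correlations are descriptions. Spp1 ran against H2-Ab1, at −0.376 and −0.377, and with the ferritin heavy chain gene Fth1, at 0.409 and 0.420. Fth1, the ferritin light chain gene Ftl1 and the heme oxygenase gene Hmox1 were correlated with each other at 0.489 to 0.625. Pf4 ran with Ppbp, at 0.498 and 0.289, although only 4.83% and 1.81% of thinned members had a Ppbp UMI. It ran against Plac8, at −0.542 and −0.291. Spp1 and Hmox1 also ran together, at 0.406 and 0.337, and Hmox1 against H2-Ab1, at −0.384 and −0.305.

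The main comparison asked how these macrophages differed between the genotypes. A gene was measured where both libraries together gave 200 UMIs or more, and was past the fold where its log2 ratio lay at least 0.32 above or below 0. Of 2901 measured genes 230 (7.93%) were past the fold and higher in the library labelled cko, and 94 (3.24%) past it and lower. The median log2 ratio over all 2901 was 0.02, and 90% of genes lay between −0.28 and 0.39. Log2 ratios below are cko over wt.

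**Figure D3:**
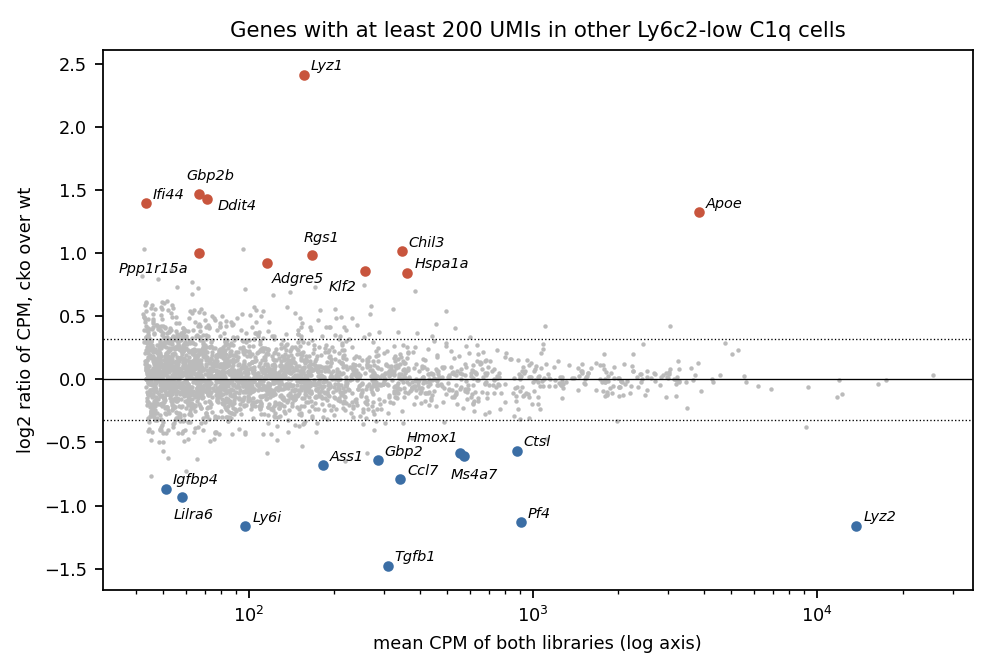
Log2 ratio of CPM, cko over wt (y axis), against the mean CPM of both libraries (x axis, log) for the 2901 genes with at least 200 UMIs in the members; dotted lines mark a log2 ratio of 0.32 in either direction, and colored points mark the genes named in each direction. Apoe (1.33) and Lyz2 (−1.16) stand apart among abundant genes.

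Lyz2, which encodes lysozyme M and holds the Cre insertion in LysMCre mice (chromosome 10, 117277331 to 117282321, minus strand, GRCm38), had 19026 CPM in the library labelled wt and 8508 CPM in the library labelled cko, 2.24-fold lower (log2 ratio −1.16, interval −1.19 to −1.14). Every member had a Lyz2 UMI after thinning, with medians of 54 and 24 UMIs of 3000. T cells, which are not known to make Lyz2, had a UMI in 76.1% and 55.1% of thinned cells, at 1862 and 1040 CPM, whose part in the members' difference was not tested. Its neighbour Lyz1 (117287797 to 117292868), a close paralog, was higher, at 49.6 and 265 CPM (2.42, interval 2.11 to 2.73). The paralogs can share reads, so the Lyz1 value is uncertain. One cell held 14.9% of the Lyz1 UMIs of the library labelled cko, and without the top cell of each library the log2 ratio was 2.32. The sum still describes few cells, since 50% of the unthinned Lyz1 UMIs lay in 15 cells labelled wt and 5 labelled cko. The thinned share of members with a Lyz1 UMI was 11.6% (interval 7.57 to 16.8) and 14.9% (10.9 to 19.6). These intervals overlap. Lyz2 was also lower in every other set of cells examined, from −0.84 in T cells to −1.19 in the Cd300e, Clec4b1 and Pparg cells. Vmp1, the gene that spans the microRNA, had 254 and 224 CPM (−0.18).

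Apoe, the secreted apolipoprotein that carries cholesterol out of macrophages, was higher by 2.51 times under the label cko, at 2195 and 5507 CPM (4383 and 14280 UMIs; 1.33, interval 1.28 to 1.38). Thinned members had a median of 2 UMIs of 3000 labelled wt and 11 labelled cko. The share of members with a UMI was 64.7% (interval 57.8 to 71.2) and 90.6% (86.5 to 93.8) after thinning, and 79.2% and 95.7% without it. T cells, which are not known to make Apoe, had thinned shares of 18.7% and 28.1% and levels of 111 and 335 CPM, a log2 ratio of 1.59, the same direction as in the members at a far lower level. The part of free Apoe RNA in the members' difference was not tested.

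Tgfb1, the gene of the cytokine TGF-β1, was the lowest relative to wt, at 455 and 164 CPM (−1.48, interval −1.65 to −1.31), 2.78-fold lower. The thinned share of members with a Tgfb1 UMI was 69.6% (interval 62.8 to 75.8) and 37.0% (31.2 to 42.9). The difference was as large in T cells, at 175 and 65.5 CPM (−1.42), and lay between −1.43 and −1.53 in the other sets of myeloid cells. No other gene of the TGF-β list passed 200 UMIs. Tgfbr2, the ligand-binding receptor chain, had 29.5 and 23.1 CPM, and Tgfbr1 14.5 and 14.7 CPM.

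Of the genes proposed to mark these cells, Pf4, Mrc1 and Ms4a7 were lower. Pf4, a platelet chemokine gene that tissue macrophages also transcribe, had 1251 and 572 CPM (−1.13, interval −1.22 to −1.04). Of its unthinned UMIs 50% lay in 11 and 12 cells, and the thinned share of cells with a UMI was 38.6% (interval 32.0 to 45.6) and 31.2% (25.7 to 37.0). In T cells Pf4 had 75.2 and 20.6 CPM (−1.87). Mrc1, the mannose receptor CD206, had 267 and 170 CPM (−0.65, interval −0.83 to −0.46) and thinned shares of 39.1% (32.4 to 46.1) and 27.2% (22.0 to 32.8). Ms4a7, a tetraspan membrane protein of macrophages, had 692 and 454 CPM (−0.61, interval −0.72 to −0.50). Over the macrophage identity list, 11 of 13 genes were measured, 1 was higher (Apoe), 3 were lower and 7 lay within the fold, with a median of −0.08. One of the 7, C1qa, is a gene of the rule, and nothing is read from it. Csf1r (−0.08), Cd68 (−0.12) and Aif1 (0.01) were among the 7. In the neighbouring C1q sets, in the order given for Apoe, Mrc1 had log2 ratios of −0.50, −0.68 and −0.55. Ms4a7 had −0.44, −0.35 and −0.39 there, and Pf4 had −0.65, −1.24 and 0.23.

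**Figure D4:**
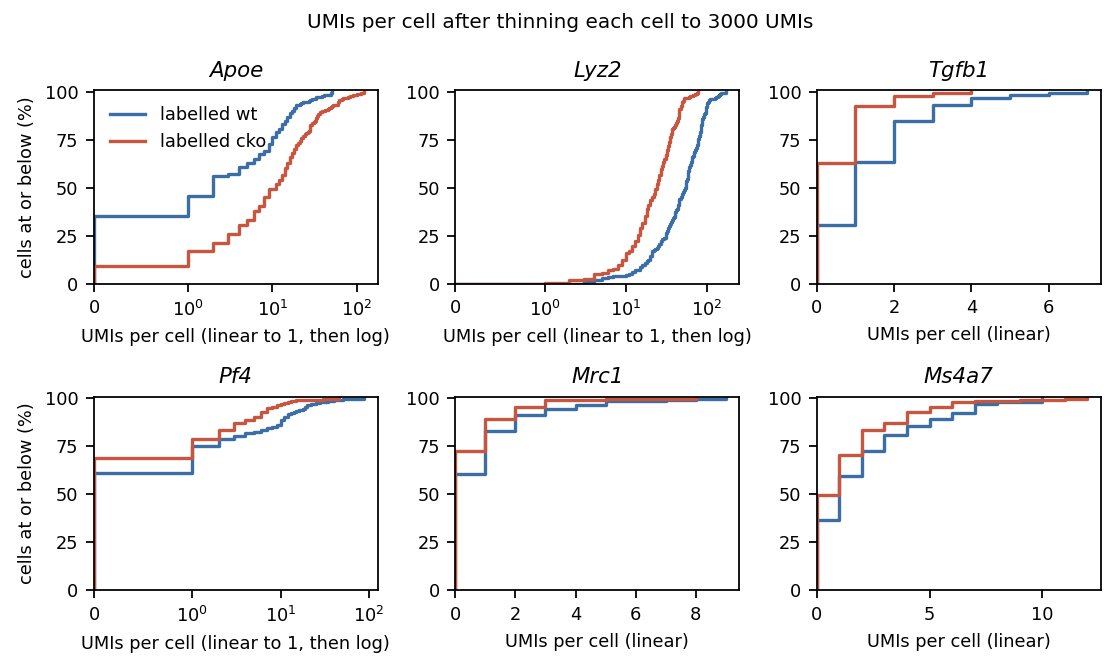
Share of members (y axis, %) with at most the number of UMIs on the x axis after thinning each cell to 3000 UMIs, for 6 genes, with 1 line per library. The line of the library labelled cko lies to the right for Apoe and to the left for the other 5 genes, except above 9 UMIs of Ms4a7, and medians were 2 and 11 UMIs for Apoe and 54 and 24 for Lyz2.

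Alternative activation genes went both ways. Chil3, the chitinase-like protein Ym1 (229 and 464 CPM, 1.02, interval 0.86 to 1.18), was higher, while Mrc1 and Tgfb1 were lower. Chil3 had thinned shares of 26.1% (interval 20.2 to 32.6) and 37.3% (31.6 to 43.3). In T cells the shares were 7.74% and 11.7%, and its level, 59.2 and 116 CPM, had a log2 ratio of 0.97. The part of free RNA was not tested. Retnla had no UMI.

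Immediate-early and heat shock genes were mostly higher. Of 10 listed genes 7 were measured, 6 were higher and none was lower, with a median of 0.59. Hspa1a, the inducible heat shock protein 70, had 259 and 465 CPM (0.85, interval 0.70 to 1.00). The AP-1 subunit genes Fos and Jun had 404 and 588 CPM (0.54) and 294 and 477 CPM (0.70). Dusp1, a phosphatase that turns off MAP kinases, had 215 and 323 CPM (0.59). Atf3 had 28.0 and 57.5 CPM (1.04), Ier2 had 110 and 163 CPM (0.57), and Junb, at 432 and 488 CPM, lay within the fold (0.17). Other genes named by size are also known from stress responses or quiescence. Ddit4, an inhibitor of mTORC1, had 38.6 and 104 CPM (1.43), and Ppp1r15a, which restores translation after stress, had 44.6 and 89.1 CPM (1.00). Klf2, a transcription factor of quiescent leukocytes, had 182 and 330 CPM (0.86). Rgs1, a regulator of G-protein signals, had 112 and 222 CPM (0.99), and Adgre5, the adhesion receptor CD97, had 80.1 and 152 CPM (0.92). The same list had medians of 0.64, 0.56 and 0.55 in the neighbouring C1q sets and 0.37 in T cells. Ddit4, Ppp1r15a, Klf2, Rgs1 and Adgre5 were higher in those C1q sets too, with log2 ratios of 0.34 to 1.88.

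Interferon genes gave no uniform pattern. Of 12 genes of the type I interferon list 7 were measured, with 4 higher, none lower and a median of 0.40. Ifi44 had 24.03 and 63.2 CPM (1.40, interval 0.92 to 1.89), and Irf7, the regulator that amplifies the response, had 220 and 315 CPM (0.52, interval 0.35 to 0.69). Isg15 (290 and 276 CPM, −0.07) lay within the fold. The list was sensitive to which cells were taken. With a C1q limit of 10 UMIs its median was −0.070, and with the rule on thinned cells −0.054. Ifi44 was also higher in the Ly6c2+ C1q cells (1.23) and in the Cd300e, Clec4b1 and Pparg cells (0.94), while T cells had 13 UMIs in each library.

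Genes induced by interferon γ were split as well. Of 8 measured, 1 was higher, 2 lower and 5 within the fold, with a median of 0.01. The higher gene was Iigp1, an interferon-inducible GTPase, at 42.1 and 61.7 CPM (0.55, interval 0.16 to 0.95). Gbp2, a guanylate-binding GTPase, had 347 and 223 CPM (−0.64), while its paralog Gbp2b, which is not in the list, had 35.6 and 98.7 CPM (1.47). In the neighbouring C1q sets Gbp2b was higher too (1.48, 0.99 and 1.39) and Gbp2 lower (−0.27, −0.44 and −0.22). The 2 genes are adjacent on chromosome 3 and closely related, so reads could be divided between them. Cxcl9 had 177 and 168 CPM (−0.08) and Cxcl10 had 94.6 and 75.2 CPM (−0.33, interval −0.63 to −0.04), with 27.5% and 15.4% of its UMIs in a single cell, and 0.0025 with a C1q limit of 40. Il12a and Il12b, the subunits of IL-12, had no UMI in either library, which allows up to 1.502 and 1.157 CPM each. The costimulatory genes Cd86 (197 and 189 CPM, −0.06) and Cd40 (52.1 and 54.8 CPM, 0.07) lay within the fold, as did Il1b (1075 and 871 CPM, −0.30).

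Antigen presentation hardly differed. All 7 MHC class II genes were measured and within the fold, with a median of 0.03 and a range of −0.08 to 0.07. Cd74 had 25360 and 25934 CPM and H2-Ab1 had 11994 and 11981 CPM. All 8 class I genes were within the fold too (median 0.03). The same held for 4 measured complement genes outside the rule (C3ar1, C5ar1, Cfp and Itgb2), 5 Fc receptor genes, 6 growth factor and chemokine receptor genes and 13 genes of hypoxia and glycolysis, whose median was −0.03. Among 14 lysosomal genes, Ctsl, the protease cathepsin L, was lower, at 1049 and 708 CPM (−0.57, interval −0.66 to −0.48), and the other 13 were within the fold.

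Iron genes leaned lower, with 2 of 5 measured genes past the fold and a median of −0.26. Fth1 had 10324 and 7933 CPM (−0.38, interval −0.41 to −0.35). Hmox1 had 665 and 445 CPM (−0.58), with 16.6% and 30.01% of its UMIs in a single cell of each library, and −0.83 without those cells. Slc40a1, the iron exporter ferroportin, had 15.02 and 40.5 CPM (1.43, interval 0.83 to 2.07), stayed under the minimum of 200 UMIs, and had 41.0% of its UMIs labelled cko in a single cell. Among 10 lipid genes 2 were higher and 1 was lower. Abcg1, a cholesterol exporter, had 42.6 and 57.1 CPM (0.42, interval 0.03 to 0.82), and the fatty acid-binding protein gene Fabp5 had 1296 and 934 CPM (−0.47). Trem2, a lipid receptor, had 129 and 106 CPM (−0.28).

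Chemokine genes were divided, with 2 of 10 higher, 2 lower and 6 within the fold. The monocyte chemokine genes Ccl7 (433 and 251 CPM, −0.79) and Ccl12 (129 and 214 CPM, 0.73) went opposite ways, while Ccl2 lay within the fold (386 and 368 CPM, −0.07). Ccl6 had 940 and 1260 CPM (0.42). Of 5 measured genes of angiogenesis and matrix remodelling, Mmp12 was higher (0.41) and Mmp13 (−0.41, and 0.058 with Ly6c2 at 0 UMIs), Mmp14 (−0.37) and Thbs1 (−0.35) were lower. The median of that list, −0.35, was 0.051 with Ly6c2 at 0 UMIs and 0.10 with the rule on thinned cells, so its sign depends on the rule. Vegfa had 6.01 and 5.78 CPM. The remaining genes named by size were Ly6i (135 and 60.2 CPM, −1.16), Lilra6 (76.6 and 40.1 CPM, −0.93), Ass1, an enzyme of the urea cycle (224 and 140 CPM, −0.68), and Igfbp4 (66.1 and 36.3 CPM, −0.87), for which 1 cell held 18.2% of the UMIs labelled wt and the log2 ratio was 0.13 with a C1q limit of 10.

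**Figure D5:**
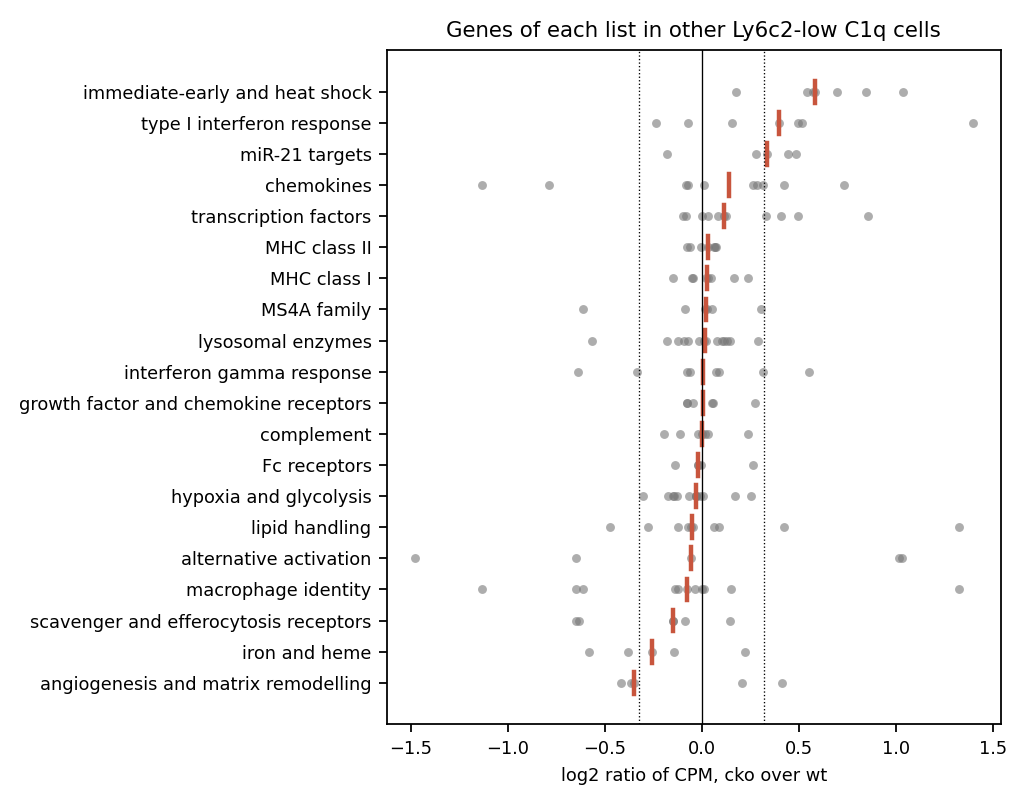
Log2 ratio of CPM, cko over wt (x axis), of each measured gene (gray points) in each gene list with at least 5 measured genes (y axis), with the list median as a red bar and dotted lines at a log2 ratio of 0.32 in either direction; some genes belong to several lists. The immediate-early and heat shock genes lie to the right, with a median of 0.59, and MHC class II genes close to 0.

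Targets of miR-21 were examined last. Of 15 listed targets 5 were measured, 3 of them were past the fold and higher and none was past it and lower, with a median of 0.34 and a range of −0.18 to 0.48. Btg2, an antiproliferative gene, had 131 and 178 CPM (0.45, interval 0.23 to 0.67). Rhob, the small GTPase whose site is printed above, had 51.6 and 72.1 CPM (0.48, interval 0.13 to 0.84). Peli1, a ubiquitin ligase of Toll-like receptor signaling, had 59.6 and 75.2 CPM (0.34, interval −0.00 to 0.68). Tgfbi, an adhesive matrix protein gene, was the most abundant target at 2211 and 2681 CPM and lay within the fold (0.28, interval 0.22 to 0.33). The longest 3′ UTR of Btg2 holds no match to the 7 letters. Tgfbr2, which holds a match, stayed under 200 UMIs, at 29.5 and 23.1 CPM (−0.35, interval −0.90 to 0.19). Pdcd4, an inhibitor of translation, had 12 and 28 UMIs (0.85, interval −0.18 to 1.96), too few to show a difference. Spry1, Reck and Timp3 had no UMI, as did Il12a. The median was 0.25 over 7 measured targets in the Vcam1, Ccl8 and Folr2 cells and 0.34 over 5 in the Ly6c2+ C1q cells. In the Ly6c2+ cells low in C1q it was 0.03 over 8. Only 4 targets were measured in the Cd300e, Clec4b1 and Pparg cells and in T cells, too few for a median. Whether loss of the microRNA raised the targets in the members was not tested.

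Genes were then divided by the seed match alone. Of 173 measured genes with a match in the 3′ UTR, 18 (10.4%) were higher and 5 (2.89%) lower, with a median of 0.03. Of 2612 measured genes without one, 203 (7.77%) were higher and 88 (3.37%) lower, with a median of 0.02. Mat2a, which makes the methyl donor S-adenosylmethionine, had the highest lower interval bound among the matched genes, at 84.1 and 125 CPM (0.57, interval 0.30 to 0.85), and Ocstamp, a gene of macrophage fusion, had 160 and 213 CPM (0.41, interval 0.21 to 0.62). Ctsl, named above, holds a match and was lower. The difference between the classes received no test.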

How the data were processed

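The authors deposited UMI counts per gene and cell, raw whole numbers for cells already called, as 1 sparse matrix for each of the 2 libraries (10x Genomics 3′ chemistry). The submitters' processing notes name Cell Ranger, Seurat and mm10, without versions; no replicate was pooled beyond the 3 mice per library. Libraries were grouped by their titles. Of 27998 genes, 121 shared a symbol with another, and of these the 1 with most UMIs in the members was kept for each symbol.

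Members, gene lists and neighbouring sets were chosen with earlier results of these data known. Clustering and integration were not used, and doublets were scored with Scrublet (scanpy 1.11.5) and kept. UMIs were summed over members and divided by their total to give CPM; genes with fewer than 200 UMIs over both libraries were not counted. A gene was past the fold at a log2 ratio of at least 0.32 in either direction. Ratios have exact conditional binomial and shares exact Clopper-Pearson 95% intervals. A count of 0 was set against a floor of 3 counts. No library has a replicate, so no test was run. Named genes were those of the rule and lists, and, outside the rule's genes, 12 in each direction ranked by the interval bound nearer to 0; against each neighbouring set, the 10 largest ratios each way by the smaller of both libraries; for variation, the 20 largest Fano factors; and the 30 highest CPM. Mat2a and Ocstamp were named after their values were seen. Counts and medians were given for lists with at least 5 measured genes, sums for markers of other lineages, and single values for genes of other lists. Alternatives changed the limits of the rule, thinning, doublets, depth, scaling, the summing over cells, single cells and the UMI minimum. Scripts were tested on simulated data. Python 3.11.15, numpy 2.4.6, scipy 1.17.1, pandas 2.3.3 and matplotlib 3.10.9 were used, with GENCODE M21 for positions and sites. Some listed or ranked genes are not reported here, although they enter the counts.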

Additional observations from a re-analysis of the deposited data

Results flagged for a closer look

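Some genes named in the other Ly6c2-low C1q cells had the opposite direction in a neighbouring set of C1q cells, with counting intervals on opposite sides of 0. None of these differences between sets was tested, since each set is 1 library per genotype. Chil3, higher in the members of the library labelled cko (log2 ratio 1.02), was lower there in the Cd300e, Clec4b1 and Pparg cells (−0.48, 104 and 134 UMIs). Ass1, lower in the members (−0.68), was higher in the Vcam1, Ccl8 and Folr2 cells (0.52, 111 and 195 UMIs). Pf4, lower in the members (−1.13), was slightly higher in the Ly6c2+ C1q cells (0.23, 1358 and 1367 UMIs). Hmox1, lower in the members (−0.58), was higher in the Ly6c2+ C1q cells (1.08, 635 and 1148 UMIs). The members' Hmox1 and Pf4 UMIs were concentrated in few cells, with 50% of them in 5 and 11 cells labelled wt and in 8 and 12 cells labelled cko.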

How the results depend on the processing

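With 1 library per genotype no library could be left out, and no paired analysis was possible because each group has 1 sample. A list median was taken as moved when it left the span of its genes' median interval bounds, and a gene when it left its own interval. The ratio of shares lay between 1.03 and 1.38 under the alternatives. The number of genes lower was 146 with a C1q limit of 10 UMIs. With minimums of 50, 500 and 10 UMIs the genes higher were 941, 66 and 2077 and the genes lower 550, 36 and 1414. More or fewer genes enter at these minimums, and the shares past the fold are not given. Genes were counted by the ratio alone, whatever their interval. These counts therefore cannot be set beside the 7.93% and 3.24% of the main comparison. With the C1q limit of 10, medians were −0.10 for complement, −0.12 for MHC class II, −0.13 for MHC class I, −0.070 for type I interferon, −0.089 for angiogenesis and matrix, −0.11 for Fc receptors and −0.13 for the MS4A family. The angiogenesis and matrix median was −0.11 with a C1q limit of 40, 0.051 with Ly6c2 at 0, 0.10 with the rule on thinned cells, and 0.21 with minimums of 50 and of 10 UMIs. MHC class II was 0.10 with Ly6c2 at 0. On thinned cells complement was 0.064 and type I interferon −0.054. With a minimum of 500 UMIs interferon γ was −0.36 and alternative activation −0.35. Of single genes, Igfbp4 (0.13) and Ifit3 (−0.070) changed direction with the C1q limit of 10, Cxcl10 (0.0025) with the limit of 40, Mmp13 (0.058) with Ly6c2 at 0 and Ifit1 (−0.28) on thinned cells. For 52 genes followed, 446 values stayed within the gene's interval, 69 moved in the same direction and 5 reversed. The causes were not tested. Depth limits the genes under 200 UMIs.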
